A study of Mus musculus with 143 samples.

Results

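Slc35a1, St3gal5, Fut10 and Chst11 are 4 genes of sugar chain synthesis that were described here across single mouse oocytes lacking ribonucleases of the RNA exosome. They were picked by name for strong knockout effects, or for knockout effects that differed between stages, in the poly(A) and RiboMinus counts together, out of 55573 gene IDs in the poly(A) counts and 55487 in the RiboMinus counts. Which comparison chose which gene is not given, so any RNA comparison of either assay may have been used, and the levels and differences of the 4 genes are given as a description with no test. Tests are given for genes of the same pathways and for neighbouring genes, from the same RNA counts, and for chromatin marks over the 4 genes. Only the chromatin marks are a readout that the choice did not use. The pathway lists were chosen with earlier results of these data known. All 4 genes passed the filter on low counts in each fit.

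Poly(A) libraries came from single oocytes of control and Dis3 conditional knockout (cKO) females at 3 stages: germinal vesicle (GV) oocytes, which are fully grown and have an intact nucleus, GV oocytes after 3 h of culture (GV3h), and metaphase II (MII) eggs from the oviducts of superovulated mice. Each stage had 8 control libraries, and Dis3 cKO had 15, 16 and 16 libraries at GV, GV3h and MII. RiboMinus libraries, made after removal of ribosomal RNA with random priming, had 8 single oocytes per group. The adult GV groups were control and Dis3 cKO. The groups of postnatal day 20 (p20), when oocytes are still growing, were control, the Dis3 and Exosc10 single knockouts, and dcKO, the label for oocytes of both knockouts. Pooled oocytes also gave 3 CUT&Tag libraries per group, which map where an antibody sits on chromatin, against the repressive histone mark H3K27me3 and against RNA polymerase II (Pol II). Titles of the Pol II libraries carry pols2s5, so the antibody may not see every form of Pol II. The mutant mice were made with CRISPR/Cas9, per the labels, which name neither the Cre line, nor the deleted exons, nor the genotype of the controls. RiboMinus titles carry a tag shared by 4 oocytes, with 2 tags per group. The labels do not say whether a tag is an animal, so p-values over oocytes measure the spread between oocytes and may be too small for a difference between animals. Poly(A) titles carry no tag, so the same limit holds for poly(A) p-values, and sums per tag could not be made there.

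Gene counts ranged from 4843964 to 15412200 per poly(A) library and from 8492102 to 35429028 per RiboMinus library. Dis3 itself had group medians of 10.3 to 15.9 counts per 1e6 gene counts (CPM) wherever it was intact, and of 0.568 to 2.82 CPM in the Dis3 cKO and dcKO groups. Exosc10 had a median of 117 CPM in p20 control, 1.94 CPM in Exosc10 cKO and 4.84 CPM in dcKO. The summed level of 10 oocyte markers was 8135 to 27677 CPM per library and all 10 were detected in every group. That of 12 cumulus and granulosa cell markers was 36.7 to 179 CPM. The 4 immune and blood markers summed to 0 to 7.43 CPM. The granulosa list moved with genotype in poly(A) libraries, with medians of 112 CPM in GV control against 73.6 CPM in GV Dis3 cKO, 80.2 against 58.1 CPM at GV3h and 96.8 against 64.5 CPM at MII, and in RiboMinus libraries 97.6 against 110 CPM in adult oocytes and 115 CPM in p20 control against 131 to 140 CPM in the p20 knockouts; its part in the results was not tested. Scaling to ERCC, reference RNA added to the lysates, shifted genes as a whole: their median on the log2 scale went from -0.27 to -2.12 for control MII against GV, from -0.26 to -1.50 for the same step in Dis3 cKO, from 0.00 to -1.69 for control adult against p20, from 0.03 to -0.52 for adult Dis3 cKO against control, from 0.16 to 0.52 for MII Dis3 cKO against control, and from 0.07 to 0.68 for the difference of the Dis3 effect between MII and GV. Against control, the median went from 0.04 to -0.23 for GV Dis3 cKO, from 0.00 to -0.31 for p20 Dis3 cKO and from -0.01 to -0.08 for dcKO. For control GV3h against GV it went from -0.05 to 0.17. Values relative to ERCC are read against these shifts. They assume an equal amount of ERCC RNA in each lysate, which was not tested. A difference in that amount between adult and p20 libraries could not be told apart from age.

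Sugar chains are built in the Golgi from nucleotide sugars that carriers bring in from the cytosol, and each linkage has its own transferase. SLC35A1 is the carrier of CMP-sialic acid, the donor for sialyltransferases. ST3GAL5 adds sialic acid to lactosylceramide and thereby makes GM3, the first ganglioside. FUT10 belongs to the fucosyltransferases, which add fucose from GDP-fucose, and CHST11 sulfates the galactosamine units of chondroitin. The exosome trims and degrades RNA, with DIS3 and EXOSC10 as its catalytic ribonucleases, and fully grown oocytes live on stored mRNA that is read and removed during maturation.

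On GRCm38.p6, Slc35a1 lies at chr4:34663257-34688113 on the minus strand, St3gal5 at chr6:72097552-72154571 on the plus strand, Fut10 at chr8:31187313-31265284 and Chst11 at chr10:82984440-83195904 on the plus strand. Promoter sequences of 300 bases around an annotated start were taken from RefSeq on the same build for 3 of the 4 genes; they are shown because, of these 3 genes, H3K27me3 lay at the start of Chst11 and hardly at the other two starts. Capitals mark GC boxes (CCGCCC, or GGGCGG on the other strand), the CCAAT box (ATTGG on the other strand) and TATAAA. The windows are chr4:34687389-34687688, chr6:72097358-72097657 and chr10:82985247-82985546.
Slc35a1: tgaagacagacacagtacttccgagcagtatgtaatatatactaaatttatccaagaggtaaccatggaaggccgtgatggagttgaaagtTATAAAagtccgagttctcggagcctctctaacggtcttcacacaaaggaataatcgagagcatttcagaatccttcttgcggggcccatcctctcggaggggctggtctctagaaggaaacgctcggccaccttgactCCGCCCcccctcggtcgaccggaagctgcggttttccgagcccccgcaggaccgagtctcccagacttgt
St3gal5: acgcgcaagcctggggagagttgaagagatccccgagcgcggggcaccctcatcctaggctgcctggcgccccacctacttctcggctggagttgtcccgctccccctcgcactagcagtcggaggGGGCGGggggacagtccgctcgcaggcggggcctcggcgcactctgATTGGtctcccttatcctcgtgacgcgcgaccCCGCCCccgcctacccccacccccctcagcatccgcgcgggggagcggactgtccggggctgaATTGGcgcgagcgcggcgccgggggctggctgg
Chst11: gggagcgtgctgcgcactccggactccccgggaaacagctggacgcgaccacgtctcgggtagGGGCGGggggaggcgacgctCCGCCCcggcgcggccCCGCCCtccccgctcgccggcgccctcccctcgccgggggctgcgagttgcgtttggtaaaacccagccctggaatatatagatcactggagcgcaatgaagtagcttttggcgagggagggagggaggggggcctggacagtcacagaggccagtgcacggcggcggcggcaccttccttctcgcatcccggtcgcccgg
St3gal5 and Chst11 started in CpG-rich sequence, with 33 and 34 CG pairs in the window against 18 for Slc35a1 and a median of 7 over 27025 promoters. G and C made up 72.7%, 71% and 52.3% of the St3gal5, Chst11 and Slc35a1 windows, against a median of 52.7%. Chst11 held 3 GC boxes, St3gal5 held 2 and Slc35a1 held 1, and 35.9% of all promoters held at least 1. St3gal5 alone of the 3 held the CCAAT box, with 2 copies on the other strand, a motif of 37.9% of promoters. Slc35a1 alone held TATAAA, found in 14.2%. CACGTG, in 7.24% of promoters, was searched on either strand and was in none of the 3 windows.

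Slc35a1, the sialic acid donor carrier, was low in every Dis3 cKO poly(A) group, and lowest in eggs. GV control oocytes had 17.9 to 48.1 CPM with a median of 30.6 CPM, and GV Dis3 cKO oocytes 2.58 to 17.0 CPM with a median of 5.56 CPM. No knockout oocyte reached the lowest control, as for 1.12% of 17389 genes. At GV3h the control oocytes lay between 27.5 and 37.0 CPM (median 32.1 CPM) and the Dis3 cKO oocytes between 3.65 and 10.4 CPM (median 6.91 CPM), again apart, as were 3.38% of genes in this direction. In MII eggs control levels of 52.5 to 95.2 CPM (median 61.7 CPM) stood against 0 to 8.50 CPM (median 4.19 CPM) in Dis3 cKO, where 1.47% of genes were lower without overlap. The egg at 0 was Dis3 cKO replicate 15, whose depth allows up to 0.412 CPM. The log2 fold changes of Dis3 cKO against control were -2.20 (SE 0.28), -2.25 (SE 0.28) and -4.07 (SE 0.29) at GV, GV3h and MII. In CPM, control eggs had more Slc35a1 than control GV oocytes (log2 1.07, SE 0.33, without overlap, as for 10.8% of genes), whereas Dis3 cKO eggs had less than Dis3 cKO GV oocytes (log2 -0.81, SE 0.25), and with scaling to the added ERCC RNA the control change turned to -0.81 and that in Dis3 cKO was -1.92.

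**Figure D1:**
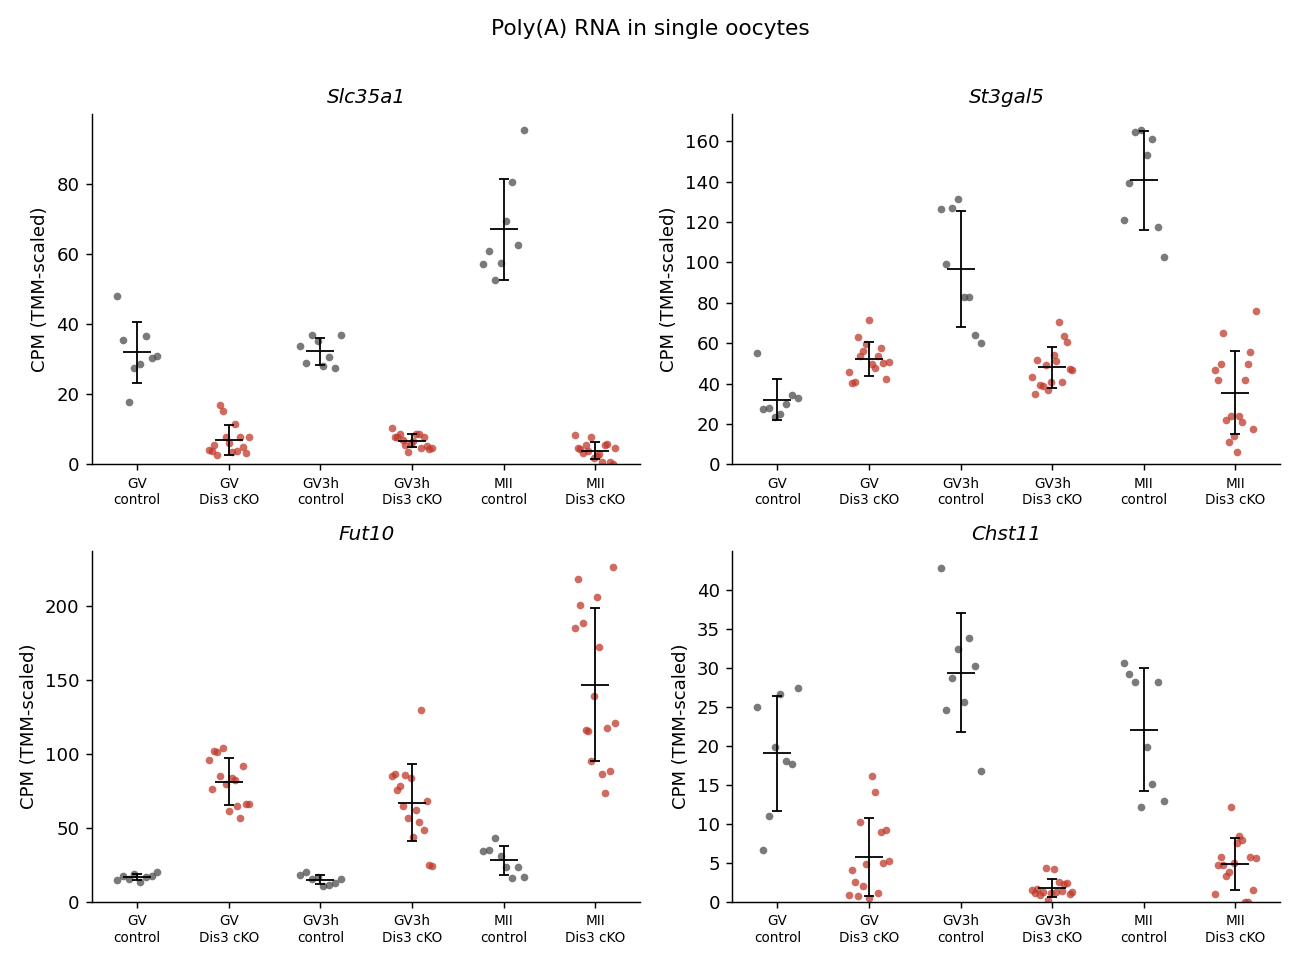
Level of each gene in single oocytes by poly(A) sequencing, in CPM scaled by TMM, for control (grey) and Dis3 cKO (red) at GV, GV3h and MII; points are libraries, bars are means and whiskers are SD. Slc35a1 and Fut10 separated the genotypes at each of the 3 stages, and the St3gal5 control level climbed from a mean of 32.1 CPM at GV to 141 CPM at MII while Dis3 cKO means lay between 35.5 and 52.2 CPM.

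Slc35a1 was also low in the adult Dis3 cKO oocytes of the RiboMinus libraries, which were prepared by another method. Control oocytes had 25.6 to 37.3 CPM (median 33.0 CPM) and Dis3 cKO oocytes 4.71 to 10.2 CPM (median 5.65 CPM). All 8 knockout oocytes were below all 8 controls, as for 3.54% of 15334 genes. The level was 4.82-fold lower (log2 -2.27, SE 0.17). Both knockout tags were low, at 4.93 ± 0.28 and 8.22 ± 1.71 CPM (SD, n = 4 each), against 34.8 ± 2.14 and 29.5 ± 4.71 CPM for the control tags. With counts summed per tag the log2 difference was -2.31.

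At p20 each knockout overlapped control in Slc35a1. Control oocytes ranged from 25.8 to 37.4 CPM (median 32.1 CPM), Dis3 cKO from 19.7 to 35.0 CPM (median 24.6 CPM), Exosc10 cKO from 34.2 to 48.5 CPM (median 37.5 CPM) and dcKO from 19.3 to 51.4 CPM (median 28.6 CPM). All of these groups overlapped, and the 3 p20 knockouts were set against the same 8 controls. Against control the log2 differences were -0.30 (SE 0.16) in Dis3 cKO, 0.30 (SE 0.16) in Exosc10 cKO and 0.05 (SE 0.16) in dcKO. Scaled to ERCC the Dis3 cKO difference was -0.63 and that of dcKO was -0.07, where the medians of all genes were -0.31 and -0.08. In dcKO the tags stood apart, at 42.5 ± 8.71 CPM for tag 1 and 23.3 ± 2.85 CPM for tag 2 (SD, n = 4 each). The Dis3 effect itself differed between adult and p20 oocytes by -1.98 on the log2 scale (SE 0.23), or -2.03 with counts summed per tag. Control levels in CPM at the 2 ages were 32.2 ± 4.40 CPM in adult and 32.0 ± 4.12 CPM at p20 (SD, n = 8 each; log2 0.01, SE 0.16), and relative to ERCC the adult level was lower (log2 -1.70).

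**Figure D2:**
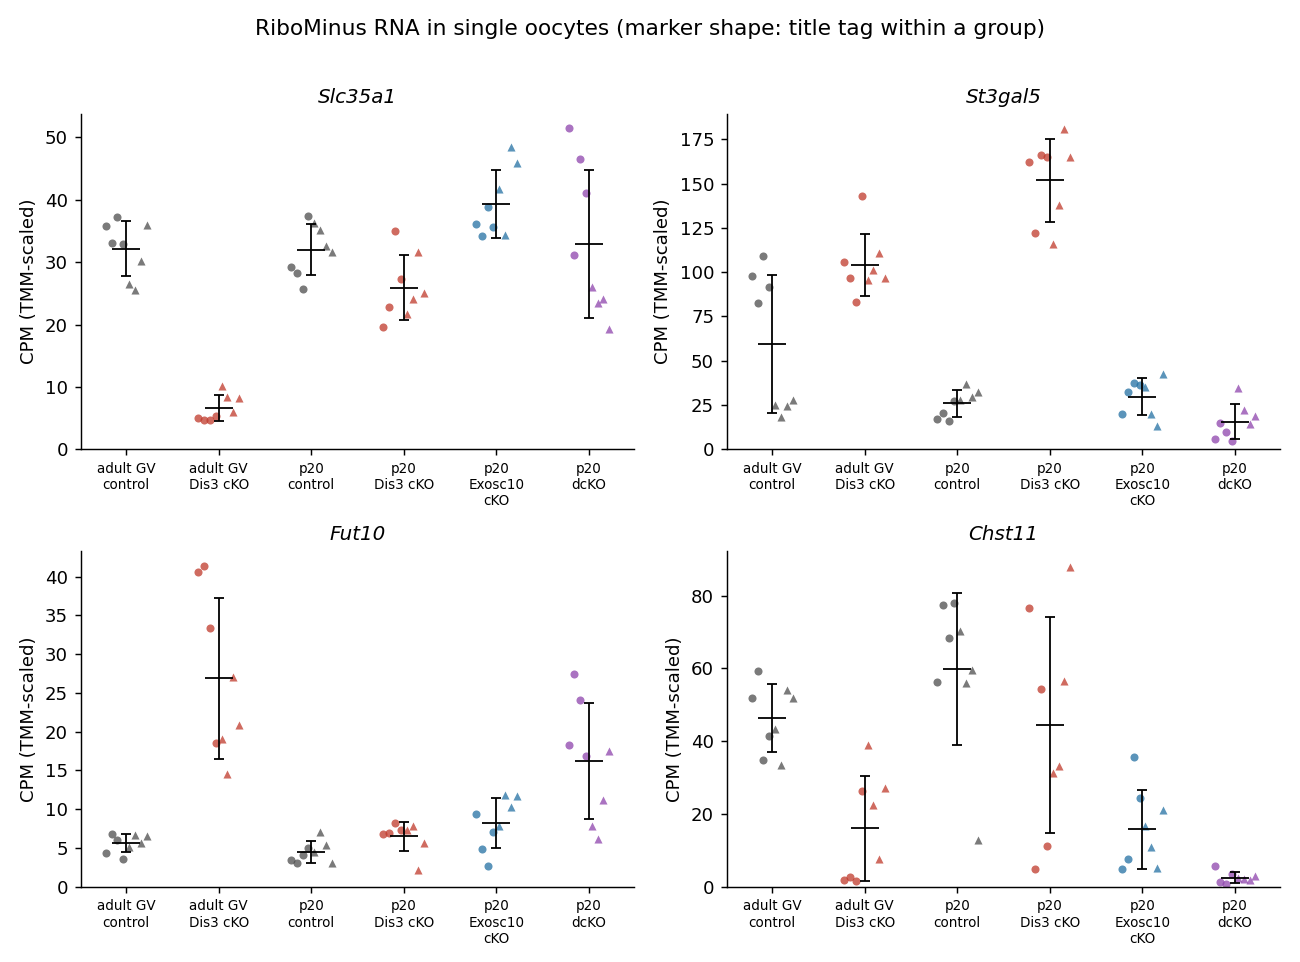
Level of each gene in single oocytes by RiboMinus sequencing, in CPM scaled by TMM, for adult GV and p20 oocytes of each genotype; points are libraries, circles and triangles are the 2 title tags of a group, bars are means and whiskers are SD. The 4 St3gal5 controls of 1 adult tag lie at 82.7 to 109 CPM and the other 4 at 18.1 to 28.0 CPM.

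Other genes of sialic acid supply, transfer and removal were called in both directions. Of 16 tested in poly(A) libraries, 0 were called at GV by edgeR (2 at an unadjusted p under 0.05, and 0 by DESeq2), 3 were higher and 4 lower at GV3h, and 3 were higher and 5 lower at MII, with a median log2 change at MII of -0.29 against 0.16 for all genes. St8sia6, a sialyltransferase, fell at MII from 30.1 ± 9.19 CPM in control (SD, n = 8) to 11.8 ± 5.57 CPM in Dis3 cKO (SD, n = 16; log2 -1.36, edgeR adjusted p = 5.95e-05). In adult RiboMinus libraries 2 of 15 were higher and 3 lower, and the sialyltransferase St6galnac3 fell from 18.3 ± 8.50 to 5.54 ± 4.94 CPM (SD, n = 8 each; log2 -1.71, edgeR adjusted p = 0.00677). With counts summed per tag edgeR called 0 genes of the 5 pathway lists in adult oocytes, and the adjusted p of St6galnac3 was 0.221. In p20 dcKO 4 of 15 rose and 7 fell, with a median of -0.61 against -0.01 for all genes; Neu1, the lysosomal sialidase, rose from 2.13 ± 2.23 to 17.1 ± 4.97 CPM (SD, n = 8 each; log2 2.99, edgeR adjusted p = 1.03e-06). In the single knockouts at p20, Dis3 cKO changed 1 of 15, the plasma membrane ganglioside sialidase Neu3, which fell from 5.40 ± 1.86 to 1.23 ± 0.955 CPM (SD, n = 8 each; edgeR adjusted p = 0.00144, or 0.116 on tag sums), and Exosc10 cKO changed 0 by edgeR (1 at an unadjusted p under 0.05, and 0 by DESeq2). Background shares are those of all genes called in either direction, 21.9%, 38.6% and 42.1% at GV, GV3h and MII, 28.1% in adult RiboMinus, and 7.37%, 7.45% and 53.7% for Dis3 cKO, Exosc10 cKO and dcKO at p20.

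St3gal5, the GM3 synthase, changed direction with stage in poly(A) libraries. At GV the controls had 23.6 to 55.4 CPM (median 29.0 CPM) and Dis3 cKO 40.4 to 71.7 CPM (median 50.7 CPM). The ranges overlapped only through control replicate 1, the highest control. At GV3h the order was the opposite, with 60.0 to 132 CPM (median 91.1 CPM) in control and 34.7 to 70.4 CPM (median 46.9 CPM) in Dis3 cKO, again with overlap. At MII control eggs had 103 to 166 CPM (median 146 CPM) and Dis3 cKO eggs 6.26 to 75.8 CPM (median 33.0 CPM), without overlap, as for 1.47% of genes in this direction. The log2 fold changes were 0.70 (SE 0.23), -1.01 (SE 0.21) and -1.99 (SE 0.21), and the Dis3 effect at GV3h and MII differed from that at GV by -1.71 (SE 0.31) and -2.69 (SE 0.32), the latter -2.13 with ERCC scaling. In controls the CPM were higher at later stages, by 1.59 (SE 0.26) at GV3h and 2.13 (SE 0.26) at MII on the log2 scale, both without overlap with GV, as for 1.06% and 10.8% of genes, and the MII value was 0.27 relative to ERCC. In Dis3 cKO the CPM were lower at MII than at GV (log2 -0.56, SE 0.18; -1.85 relative to ERCC).

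At p20 St3gal5 was above control in Dis3 cKO and below the control mean in most dcKO oocytes. Control oocytes had 16.1 to 37.0 CPM (median 27.6 CPM) and Dis3 cKO oocytes 116 to 181 CPM (median 163 CPM). The groups did not overlap, as for 1.12% of 15882 genes, and the level was 5.87-fold higher (log2 2.55, SE 0.28). Tags 1 and 2 of Dis3 cKO were at 154 ± 21.2 and 150 ± 28.6 CPM (SD, n = 4 each), against 20.2 ± 5.12 and 31.6 ± 4.13 CPM in control. Exosc10 cKO oocytes ranged from 13.1 to 42.5 CPM (median 33.8 CPM), overlapping control, with a log2 difference of 0.19 (SE 0.27). In dcKO the level was 4.60 to 34.9 CPM (median 14.5 CPM), lower in 7 of 8 oocytes than the control mean (log2 -0.72, SE 0.27), and overlapped control. The dcKO tags stood apart, with tag 1 at 8.78 ± 4.65 CPM and tag 2 at 22.6 ± 8.86 CPM (SD, n = 4 each), the latter above the mean of control tag 1. Between knockouts, dcKO was 9.64-fold below Dis3 cKO (log2 -3.27, SE 0.29), with no overlap, as for 7.57% of genes. Its difference from Exosc10 cKO, which it overlapped, was -0.90 (SE 0.27).

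Adult RiboMinus oocytes showed how far St3gal5 could differ between controls. The 4 controls of tag AM1758 had 82.7 to 109 CPM (mean 95.2 ± 11 SD) and the 4 of tag AM1759 had 18.1 to 28.0 CPM (mean 23.9 ± 4.14 SD), while the Dis3 cKO tags AM1713 and AM1757 stood at 107 ± 25.7 and 101 ± 6.92 CPM (SD, n = 4 each). Set against control tag AM1758 the knockout oocytes overlapped it, and set against AM1759 they did not. The pooled difference was 0.83 on the log2 scale (SE 0.33), or 0.27 with ERCC scaling, where the median of all genes was -0.52. The Dis3 effect in adults differed from that at p20 by -1.74 on the log2 scale (SE 0.43). In CPM, adult controls had more St3gal5 than p20 controls (59.5 ± 38.9 against 25.9 ± 7.46 CPM, SD, n = 8 each; log2 1.20, SE 0.31), with the excess in tag AM1758, and relative to ERCC the sign turned (log2 -0.52).

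Among the other ganglioside genes, B3galt4, which makes GM1 from GM2, and St3gal2, which adds sialic acid to more complex gangliosides, moved up in several knockouts. In poly(A) libraries 2 of 13 tested genes rose and 0 fell at GV, 3 rose and 0 fell at GV3h, and 3 rose and 3 fell at MII. These were 15.4%, 23.1% and 46.2% of the list, against 21.9%, 38.6% and 42.1% of all genes. B4galt5, a lactosylceramide synthase and thus a supplier of the ST3GAL5 substrate, rose at GV from 34.7 ± 6.32 CPM (SD, n = 8) to 63.6 ± 13.1 CPM (SD, n = 15; log2 0.87, edgeR adjusted p = 5.43e-07). In adult RiboMinus 2 of 11 rose and 1 fell, and at p20 Dis3 cKO lowered 1 (Neu3), Exosc10 cKO changed 0 by edgeR (1 at an unadjusted p under 0.05, and 0 by DESeq2), and dcKO raised 5 and lowered 2 of 11. The shares in adult, p20 Dis3 cKO and dcKO oocytes were 27.3%, 9.09% and 63.6%, against 28.1%, 7.37% and 53.7% of all genes. St3gal2 rose in dcKO from 2.02 ± 1.64 to 16.7 ± 5.02 CPM (SD, n = 8 each; log2 3.05, edgeR adjusted p = 6.21e-07), and B3galt4 from 0.955 ± 0.406 to 4.46 ± 1.241 CPM (SD, n = 8 each; log2 2.22, edgeR adjusted p = 0.000993). St8sia1, of the same list, fell in dcKO (log2 -2.75), and Hexa fell at MII (log2 -1.93). With counts summed per tag edgeR called 0 list genes in adult oocytes, so the adult calls were lost. The median log2 change of the list in dcKO was 0.80, against -0.01 for all genes.

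Fut10, the fucosyltransferase, was higher in Dis3 cKO at each poly(A) stage. In poly(A) libraries GV controls had 13.4 to 19.9 CPM (median 17.2 CPM) and GV Dis3 cKO oocytes 56.6 to 104 CPM (median 82.6 CPM). GV3h controls had 10.8 to 19.8 CPM (median 15.3 CPM) against 24.3 to 129 CPM (median 66.5 CPM). MII controls had 15.9 to 42.8 CPM (median 27.2 CPM) against 73.4 to 226 CPM (median 130 CPM). At none of the 3 stages did a Dis3 cKO library overlap control, as for 2.04%, 5.9% and 2.02% of genes in this direction. The log2 fold changes of 2.27 (SE 0.22), 2.15 (SE 0.22) and 2.39 (SE 0.22) were close to each other, and the Dis3 effect at MII differed from that at GV by 0.12 (SE 0.28), or 0.67 with ERCC scaling. The control difference over 3 h of culture was -0.16 (SE 0.23), or 0.04 with ERCC scaling. In CPM, control eggs had more than GV oocytes (log2 0.73, SE 0.23), and less relative to ERCC (log2 -1.12).

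In adult RiboMinus oocytes Fut10 was likewise higher in Dis3 cKO. Control oocytes of tag AM1758 had 4.37, 6.80, 6.08 and 3.56 CPM and those of AM1759 had 5.16, 6.70, 5.61 and 6.58 CPM. Dis3 cKO oocytes of tag AM1713 had 40.5, 41.3, 33.3 and 18.6 CPM, and those of AM1757 had 19.1, 14.6, 27.04 and 20.9 CPM. Every knockout oocyte was above every control, as for 3.55% of genes, and AM1713 held the 3 highest. The difference was 4.91-fold (log2 2.29, SE 0.23), or 2.25 on the log2 scale with counts summed per tag.

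At p20 the mean of Fut10 was highest in dcKO, and all 3 knockouts overlapped control. Control oocytes had 3.01 to 7.12 CPM (median 4.27 CPM), Dis3 cKO 2.19 to 8.18 CPM (median 7.09 CPM), Exosc10 cKO 2.698 to 11.9 CPM (median 8.59 CPM) and dcKO 6.10 to 27.5 CPM (median 17.2 CPM). The lowest Dis3 cKO and Exosc10 cKO oocytes lay below the lowest control. The log2 differences from control were 0.55 (SE 0.29) for Dis3 cKO and 0.88 (SE 0.29) for Exosc10 cKO. In dcKO the level was 3.65-fold higher (log2 1.87, SE 0.30), with all 8 oocytes above the control mean. The difference of dcKO from Dis3 cKO was 1.32 (SE 0.29) and from Exosc10 cKO 0.99 (SE 0.29), with overlap in both. Its tags were at 21.7 ± 4.95 and 10.7 ± 5.00 CPM (SD, n = 4 each). The Dis3 effect was larger in adult than in p20 oocytes by 1.72 on the log2 scale (SE 0.39). Controls of the 2 ages differed by 0.33 in CPM on the log2 scale (SE 0.27) and by -1.37 relative to ERCC.

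**Figure D3:**
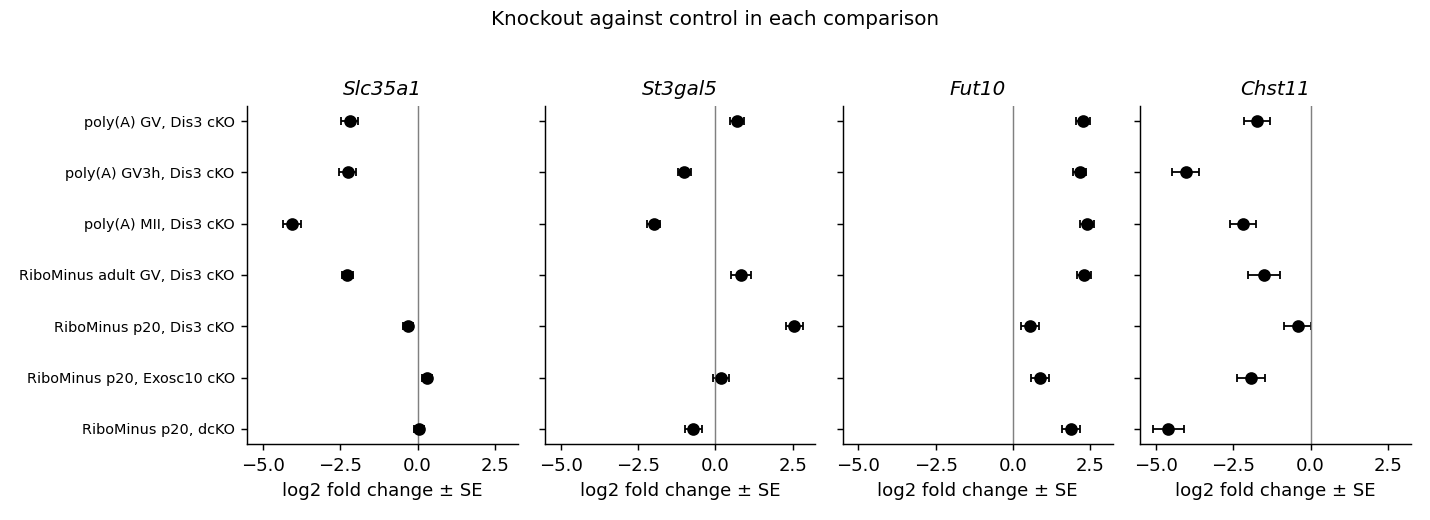
Log2 fold change of each gene in each knockout against its control, with the SE of the edgeR fit as whiskers; the genes were chosen for such effects, so no point is tested. Slc35a1 sits near 0 in the 3 p20 knockouts and at -2.27 in adult Dis3 cKO, and St3gal5 lies at 2.55 in p20 Dis3 cKO and at -0.72 in dcKO.

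Fucosylation as a list held 11 tested genes in each assay. At GV 1 rose and 1 fell, at GV3h 3 rose and 3 fell, and at MII 4 rose and 1 fell. These were 18.2%, 54.5% and 45.5% of the list, against 21.9%, 38.6% and 42.1% of all genes. Pofut1, the protein O-fucosyltransferase that modifies Notch receptors, rose at each poly(A) stage, from 1.15 ± 0.860 CPM (SD, n = 8) to 6.47 ± 3.44 CPM (SD, n = 15) at GV (log2 2.47, edgeR adjusted p = 4.14e-06), and in p20 dcKO from 1.28 ± 0.819 to 14.3 ± 8.55 CPM (SD, n = 8 each; log2 3.47, edgeR adjusted p = 3.50e-06). Fut8, the core fucosyltransferase of N-glycans, fell at GV3h from 153 ± 16.0 CPM (SD, n = 8) to 95.5 ± 13.3 CPM (SD, n = 16; log2 -0.68, edgeR adjusted p = 7.29e-07) and in dcKO from 131 ± 19.8 to 64.0 ± 15.1 CPM (SD, n = 8 each; log2 -1.03, edgeR adjusted p = 2.61e-08). In adult RiboMinus 1 rose, the GDP-fucose carrier Slc35c1, and 1 fell, Slc35c2, a related family member, and neither passed on tag sums (edgeR adjusted p = 0.427 and 0.239). With ERCC scaling Slc35c1 turned to -0.20 on the log2 scale. In the same adult libraries Pofut1 was at 1.66 ± 0.960 CPM in Dis3 cKO and 0.613 ± 0.464 CPM in control (SD, n = 8 each) and did not pass (edgeR adjusted p = 0.0560). The adult share was 18.2% of the list against 28.1% of all genes. At p20 the counts were 1 up and 1 down in Dis3 cKO, 0 up and 1 down in Exosc10 cKO, and 3 up and 2 down in dcKO. Those were 18.2%, 9.09% and 45.5% of the list, against 7.37%, 7.45% and 53.7% of all genes. Gmds, which makes the precursor of GDP-fucose, fell in Dis3 cKO to 30.7 ± 4.64 CPM and in Exosc10 cKO to 28.8 ± 3.84 CPM from 46.5 ± 2.45 CPM in the shared controls (SD, n = 8 each; edgeR adjusted p = 3.31e-05 and 3.42e-06). Neither passed on tag sums (edgeR adjusted p = 0.103 and 0.0594), and in Exosc10 cKO Gmds did not pass with ERCC scaling (adjusted p = 0.0572).

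Chst11, the chondroitin sulfotransferase, was lower in Dis3 cKO at all 3 stages of the poly(A) series. GV controls had 6.62 to 27.5 CPM (median 18.9 CPM) and GV Dis3 cKO oocytes 0.514 to 16.2 CPM (median 4.84 CPM), overlapping, with all 15 knockout oocytes below the control mean. At GV3h controls had 16.8 to 42.8 CPM (median 29.5 CPM) and Dis3 cKO oocytes 0.183 to 4.34 CPM (median 1.33 CPM), without overlap, as for 3.38% of genes in this direction. MII controls had 12.2 to 30.7 CPM (median 24.0 CPM) and Dis3 cKO eggs 0 to 12.2 CPM (median 4.87 CPM), with the highest knockout egg just under the lowest control; 1.47% of genes were lower without overlap there. The 2 eggs at 0, replicates 12 and 13, allow up to 0.352 and 0.309 CPM at their depth. The folds lower were 3.32 at GV (log2 -1.73, SE 0.43), 16.4 at GV3h (log2 -4.03, SE 0.44) and 4.54 at MII (log2 -2.18, SE 0.42). The effect at GV3h differed from that at GV by -2.31 (SE 0.64). At MII it differed from GV by -0.45 (SE 0.62), or 0.29 with ERCC scaling. Control levels differed from GV by 0.63 (SE 0.50) at GV3h and by 0.21 (SE 0.50) at MII on the log2 scale, and the MII difference was -1.61 relative to ERCC.

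In adult RiboMinus oocytes Chst11 varied widely between knockout cells. Controls had 33.5 to 59.1 CPM (median 47.6 CPM). Dis3 cKO oocytes of tag AM1713 had 1.74, 2.63, 1.60 and 26.2 CPM, and those of AM1757 had 39.1, 22.6, 7.72 and 27.003 CPM. All 8 were below the control mean and 1 overlapped the control range. The level was 2.85-fold lower (log2 -1.51, SE 0.52), and the log2 difference was -2.21 with ERCC scaling.

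Chst11 had its lowest RiboMinus level in p20 dcKO. Controls had 56.3, 77.3, 68.3 and 77.9 CPM in tag 1 and 70.3, 56.0, 59.6 and 12.8 CPM in tag 2. dcKO oocytes had 5.69, 1.40, 0.633 and 3.43 CPM in tag 1 and 2.28, 1.98, 1.70 and 2.83 CPM in tag 2, all below the lowest control, as for 10.1% of genes. The log2 difference was -4.60 (SE 0.52). Exosc10 cKO lay between, at 4.96 to 35.7 CPM (median 13.8 CPM; log2 -1.93, SE 0.44). Dis3 cKO oocytes spread from 4.79 to 87.9 CPM (median 43.7 CPM), across and beyond the control range (log2 -0.42, SE 0.43). Adult and p20 controls differed by -0.37 on the log2 scale (SE 0.48), and by -2.01 relative to ERCC.

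In the chondroitin and dermatan sulfate synthesis list 11 of 21 tested genes were higher and 3 lower in dcKO, a share of 66.7% against 53.7% of all genes, with a median log2 change of 0.85 against -0.01 for all genes. Csgalnact2, which starts and extends chondroitin chains, rose there from 0.667 ± 1.04 to 16.3 ± 8.92 CPM (SD, n = 8 each; log2 4.57, edgeR adjusted p = 7.67e-06). Ust, a uronyl sulfotransferase of the same chains, fell there, from 30.5 ± 17.4 to 0.933 ± 0.652 CPM (SD, n = 8 each; log2 -4.98, edgeR adjusted p = 1.43e-08). Ust also fell in p20 Dis3 cKO to 7.75 ± 4.99 CPM (SD, n = 8; edgeR adjusted p = 0.00802) and in Exosc10 cKO to 9.23 ± 9.28 CPM (SD, n = 8; adjusted p = 0.0212), against the same controls. In Exosc10 cKO the Ust call was lost on tag sums (edgeR adjusted p = 0.0540) and with ERCC scaling (adjusted p = 0.116). In those comparisons 1 list gene rose and 1 fell each, 9.52% of the list against 7.37% and 7.45% of all genes. B3galt6, which adds a galactose of the chain's linkage to protein, rose in GV Dis3 cKO from 0.494 ± 0.768 CPM (SD, n = 8) to 3.42 ± 1.77 CPM (SD, n = 15; edgeR adjusted p = 0.00382). In poly(A) libraries 1 rose and 1 fell at GV, 7 and 1 at GV3h, and 5 and 2 at MII, of 21. These were 9.52%, 38.1% and 33.3% of the list, against 21.9%, 38.6% and 42.1% of all genes. Adult RiboMinus had 2 higher and 1 lower of 17, or 17.6% against 28.1% of all genes.

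Over all 5 lists, members left out and each gene counted once, the shares called stand here beside those of all genes. At GV 4 of 64 rose and 3 fell, 10.9% against 21.9% of all genes. At GV3h it was 16 and 9, or 39.1% against 38.6%, and at MII 16 and 12, or 43.8% against 42.1%. Adult RiboMinus had 6 and 7 of 57, or 22.8% against 28.1%. At p20, of 61 genes, Dis3 cKO had 2 and 3, or 8.20% against 7.37%, Exosc10 cKO 1 and 2, or 4.92% against 7.45%, and dcKO 24 and 14, or 62.3% against 53.7%. The counts moved by over 1.5 times with the fit: to 12 from 7 at GV and to 15 from 28 at MII in fits of only the groups compared, and with ERCC scaling to 26 from 13 in adult oocytes, to 3 from 5 in p20 Dis3 cKO and to 0 from 3 in Exosc10 cKO. With counts summed per tag edgeR gave 0, 2 and 0 in the last 3 comparisons. At an unadjusted p under 0.05 the counts of 0 were 6 in adult oocytes and 6 in Exosc10 cKO on tag sums and 5 in Exosc10 cKO with ERCC scaling, and DESeq2 on single oocytes called 14 in adult and 3 in Exosc10 cKO.

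CUT&Tag, which the choice of genes did not use, showed H3K27me3 over Chst11 and Fut10 and almost none over Slc35a1 and St3gal5. The median share of the span over all genes was also 0%, in every H3K27me3 library except dcKO replicate 3, at 0.970%. In the adult GV control libraries 13.9%, 7.85% and 9.42% of the Chst11 span lay under the authors' H3K27me3 peaks, and in Dis3 cKO 35.5%, 25.7% and 28.1%. The p20 controls had 18.8%, 16.4% and 19.5%, and dcKO 30.1%, 33.1% and 26.6%. In both pairs each knockout library was above each control; the differences of 19.3 and 11.7 percentage points each had a 2-sided exact permutation p of 0.1, the smallest that 3 against 3 can give. The background is wide: 13.8% and 13.2% of 21887 genes were higher without overlap in these comparisons. Peak lists also grew, covering 66777665 to 151758718 bases in adult control and 153399796 to 194575542 in Dis3 cKO, and 128881322 to 132249485 in p20 control and 164928285 to 193361428 in dcKO. Their part in the Chst11 result was not tested. A peak within 1000 bases of the Chst11 start was present in 2 of 3 adult controls and in 3 of 3 libraries of each other group, and the 300-base promoter printed above was touched in 2, 1, 2 and 2 of 3 libraries of adult control, adult Dis3 cKO, p20 control and dcKO. Of 17492 genes, 11.2%, 13.4%, 17.7% and 14.2% had a peak within 1000 bases of the start in every library of these groups.

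Fut10 had more of the mark in adult Dis3 cKO than in control, from 0.830%, 2.99% and 0.753% of its span in control to 10.9%, 10.1% and 12.2% in Dis3 cKO, without overlap (exact permutation p = 0.1; a difference of 9.53 percentage points, or 5.08 with only the peaks above the median signal of their list), in the same comparison in which its RNA was higher. In this adult comparison 13.8% of 21887 genes were higher without overlap. The adult Dis3 cKO peak lists also covered more bases, as given above, and their part in the Fut10 difference was not tested. At p20 the order was the other way and the groups overlapped, with 10.47%, 4.81% and 6.57% in control and 3.05%, 5.68% and 1.81% in dcKO (exact permutation p = 0.2). The lower end of the gene had a peak within 1000 bases in 0 of 3 adult control libraries and in 3 of 3 of adult Dis3 cKO, p20 control and dcKO, or in 1 of 3 adult controls within 3000 bases; the upper end had no H3K27me3 peak in these 12 libraries. At 1000 bases, 13.4%, 17.7% and 14.2% of 17492 genes had a peak at the start in every library of adult Dis3 cKO, p20 control and dcKO. Adult control was below p20 control without overlap for both Fut10 and Chst11, as for 10.6% of genes. In adult control 63.2% to 69.7% of genes, and in dcKO 55.0% to 66.1%, had no more of their span under peaks than Fut10. Over St3gal5 the H3K27me3 share was 0% except in 1 p20 control library at 0.605% and 1 dcKO library at 1.95%, and over Slc35a1 it was 0% in all libraries except 1 adult Dis3 cKO library at 1.21%. An H3K27me3 peak lay within 1000 bases of the St3gal5 start in 1 of 3 adult control libraries.

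Pol II peaks were fewest over Fut10 and most extensive over St3gal5. In adult control 0%, 4.78% and 1.83% of the St3gal5 span was covered, in Dis3 cKO 16.6%, 4.76% and 23.2%, and in p20 control 9.66%, 4.05% and 6.40%. Dis3 cKO replicate 2, the low one, also had the smallest Pol II peak list of its group, 20717759 bases against 57830426 and 78815644. Adult Dis3 cKO and control overlapped (exact permutation p = 0.2). For Slc35a1 the adult control libraries had 0%, 1.87% and 0% and Dis3 cKO 5.79%, 0% and 7.29% (exact permutation p = 0.4), and a Pol II peak lay within 1000 bases of the start in 0 of 3 and 2 of 3 of them. Such a peak was in every library of these groups for 0.366% and 1.15% of 17492 genes. Chst11 had 0.429% to 1.77% in control and 0.329% to 2.17% in Dis3 cKO (exact permutation p = 0.7). Fut10 had 0% in each adult control and 0.354%, 0% and 1.41% in Dis3 cKO (exact permutation p = 0.4).

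**Figure D4:**
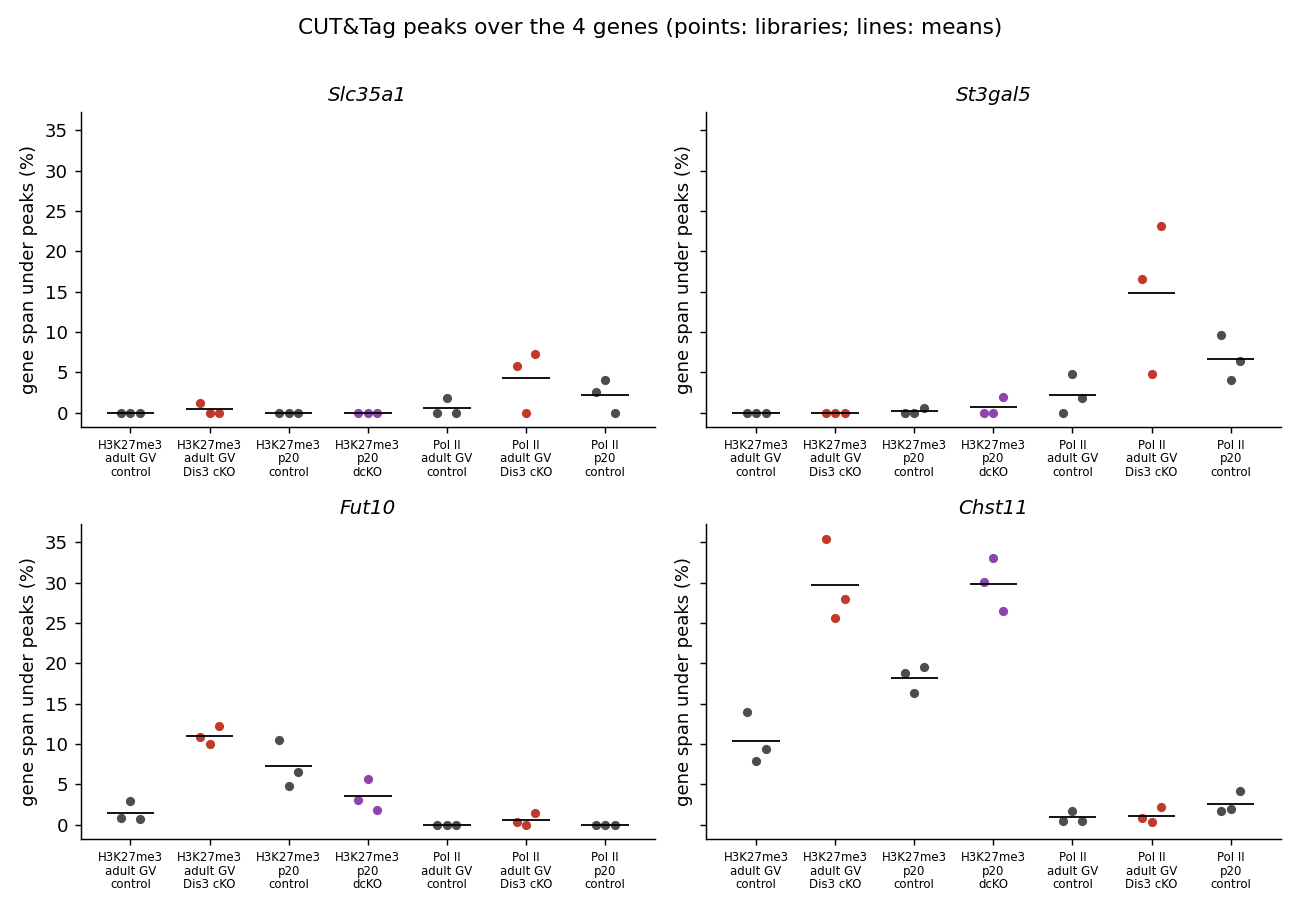
Percent of each gene's span under the authors' CUT&Tag peaks, for H3K27me3 and Pol II; points are the 3 libraries of a group and lines are means. Chst11 carries H3K27me3 over 10.4% of its span in adult control and 29.7% in adult Dis3 cKO, Slc35a1 and St3gal5 stay near 0, and the Pol II share over St3gal5 is the widest spread, 4.76% to 23.2% in adult Dis3 cKO.

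Neighbouring and overlapping genes with fitted values were checked because it is not given in the sources used here whether reads were counted by strand. The lncRNA 4933431G14Rik lies inside St3gal5, at chr6:72120213-72123197, and rose in Dis3 cKO poly(A) libraries, from 0.883 ± 0.416 CPM (SD, n = 8) to 5.64 ± 3.22 CPM (SD, n = 15) at GV, from 0.634 ± 0.278 CPM (SD, n = 8) to 5.98 ± 2.43 CPM (SD, n = 16) at GV3h and from 0.0600 ± 0.132 CPM (SD, n = 8) to 1.47 ± 1.76 CPM (SD, n = 16) at MII (edgeR adjusted p = 6.24e-05, 1.67e-06 and 4.33e-07). At GV, where the lncRNA rose, St3gal5 was higher in Dis3 cKO, and at GV3h and MII it was lower. In adult Dis3 cKO the pooled St3gal5 difference was 0.83 on the log2 scale (0.27 with ERCC scaling), and the knockout oocytes overlapped control tag AM1758. There the lncRNA was at 1.85 ± 1.62 CPM against 0.649 ± 0.243 CPM in control (SD, n = 8 each; log2 1.54, edgeR adjusted p = 0.0543). In p20 Dis3 cKO, where St3gal5 was higher without overlap, the lncRNA was at 0.701 ± 0.853 CPM against 0.816 ± 0.516 CPM in control (SD, n = 8 each). Fut10 overlaps the pseudogene Gm8051, which was in no fit and was not compared. Mak16, a ribosome assembly gene, lies 18588 bases from Fut10. Mak16 rose in p20 dcKO from 1.30 ± 0.905 to 23.4 ± 13.8 CPM (SD, n = 8 each; log2 4.15, edgeR adjusted p = 1.15e-08). In Exosc10 cKO it rose to 4.47 ± 1.80 CPM (SD, n = 8; log2 1.76, edgeR adjusted p = 0.0108, or 0.190 on tag sums). In adult Dis3 cKO it was at 1.21 ± 0.457 against 1.07 ± 0.820 CPM (edgeR adjusted p = 0.804). Beside Slc35a1, Cfap206 lies 460 bases away and rose in adult Dis3 cKO from 7.21 ± 1.42 to 11.4 ± 3.28 CPM (SD, n = 8 each; edgeR adjusted p = 0.0125), a call lost on tag sums (adjusted p = 0.346) and with ERCC scaling (adjusted p = 0.743). It also rose in poly(A) GV Dis3 cKO, from 2.22 ± 1.49 CPM (SD, n = 8) to 5.86 ± 3.16 CPM (SD, n = 15; edgeR adjusted p = 0.00192). At GV3h and MII Cfap206 did not pass (edgeR adjusted p = 0.0700 and 0.202). Nor did it pass in p20 Dis3 cKO, Exosc10 cKO or dcKO (edgeR adjusted p = 0.213, 0.962 and 0.604). Rars2, 3089 bases away, was at 19.1 ± 1.83 CPM in adult control and 18.5 ± 4.86 CPM in adult Dis3 cKO (SD, n = 8 each). At poly(A) MII it fell from 10.9 ± 4.13 CPM (SD, n = 8) to 8.27 ± 2.95 CPM (SD, n = 16; log2 -0.40, edgeR adjusted p = 0.0338), a call lost with ERCC scaling (adjusted p = 0.945) and in a fit of only these groups (adjusted p = 0.173). Chst11 overlaps the lncRNA LOC115487465, which had no matching gene ID and was not compared.

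The patterns of the 4 genes over the 12 RNA groups were compared with 9221 genes as Pearson correlations of group means on a log2 scale, centred within each assay; the groups share controls and library types, so the values are descriptions. Nearest to Fut10 were Ccdc122 (r = 0.97), Gm11190 (0.97) and Cdc34b (0.97), and nearest to Slc35a1 were Gid4 (0.98), Gda (0.97) and Slc7a1 (0.97). Chst11 was nearest to Dnase1l3 (0.98), Lrp2 (0.96) and Plpp1 (0.96). St3gal5 had less close neighbours, Pdxdc1 (0.90), Polr1a (0.88) and Pxdn (0.85). Among the 4 genes themselves Fut10 ran opposite to Slc35a1 (r = -0.85) and Chst11 (-0.81), and St3gal5 followed none of them closely (r from -0.17 to 0.44).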

How the data were processed

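Counts per gene were used as deposited: whole numbers made by the authors, not normalized, with 1 column per library. The submitters' processing notes name cutadapt 2.5, STAR 2.7.2a, HTSeq 0.9.1 and the build mm10; how overlapping genes and strand were counted is not given in the sources used here. CUT&Tag reads were sampled to equal depth, per the series' design text, and the deposited peak lists, 1 per library, hold the authors' own signal per peak, used only to rank peaks within a list. Of 143 samples, 3 IgG samples were not analysed here, and 0 value columns were left without a sample.

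All genes were fitted with edgeR 4.0.16 in R 4.3.3 (TMM scaling, filterByExpr, quasi-likelihood F test, Benjamini-Hochberg adjustment over all genes, threshold 0.05), with the SE taken as the log2 fold change over the square root of F. Poly(A) groups were fitted together, adult and p20 RiboMinus groups separately, and comparisons of ages used all 6 RiboMinus groups. CPM use TMM-scaled library sizes. Rows of ERCC RNA, added to each lysate, stayed out of library sizes and served as the alternative scaling. It bears on how much RNA an oocyte holds only if each lysate received the same amount, which was not tested. ERCC counts ran from 7089 to 192786 per RiboMinus library. Reads carry no molecular identifiers, so limits from a count of 0 (3 counts) cover counting error only. Gene positions, promoters and neighbours within 20 kb are RefSeq's on GRCm38.p6, the assembly behind mm10. Peaks were matched to the span, or to 1000 bases on either side of the start. Scripts were tested on simulated data.

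The planned tests of RNA differences of the 4 genes are not reported, since the choice of the genes may rest on any of them. The 4 genes and the 5 lists of 89 other glycosylation genes and 3 marker lists were chosen with earlier results of these data known. Named list genes were picked from the up to 3 per list and comparison with the largest change among those called, and not all of these are described. In dcKO, for example, Chpf2 (log2 5.13) and Slc35d1 (log2 3.83) were left out beside genes with smaller changes. Pofut1 in adult oocytes is given although it was not called. Replicate numbers did not pair the libraries. Alternatives were ERCC scaling, DESeq2 1.42.0, no filter on low counts, fits of only the groups compared, a replicate block, counts summed per title tag, leaving out libraries, and stricter or wider peak matching.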

Additional observations from a re-analysis of the deposited data

Results flagged for a closer look

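Over 36 gene and group combinations of 4 to 10 libraries, 4 held a library far from the rest, by a gap to the nearest library above Dixon's critical value, which chance alone exceeds in about 1 group in 20. St3gal5 was at 55.4 CPM in replicate 1 of GV control and at 143 CPM in oocyte 4 of tag AM1713 in adult Dis3 cKO, each the highest of its group. Fut10 was at 2.19 CPM in oocyte 3 of tag 2 in p20 Dis3 cKO, the lowest of its group. Chst11 was at 12.8 CPM in oocyte 4 of tag 2 in p20 control, the lowest control.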

How the results depend on the processing

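The 4 genes gave 472 log2 differences under alternatives, among them leave-one-out ratios of group means, each set against the edgeR value. The limit for a move was the pooled SD between libraries, or the SE for differences of the Dis3 effect. Of the 472, 452 moved within this limit, 15 moved by more and 5 changed sign from a difference larger than its SE. All 20 came from ERCC scaling. Another 13 changed sign from a difference within its SE, some of them among the 15. In control MII against GV it reversed Fut10 (-1.12) and Slc35a1 (-0.81), and gave 0.27 for St3gal5 and -1.61 for Chst11. In Dis3 cKO MII against GV it reversed Fut10 (-0.45), where St3gal5 was -1.85 and Slc35a1 -1.92. These MII values depend on how ERCC was scaled. As mean log2 ratios of counts to ERCC, Fut10 there was -0.49 on ERCC totals and -0.08 on TMM-scaled totals. For control MII against GV the same pairs were -1.19 and -0.83 for Fut10, -0.77 and -0.41 for Slc35a1, 0.30 and 0.66 for St3gal5, and -1.61 and -1.25 for Chst11. For control adult against p20 ERCC scaling reversed Fut10 (-1.37) and St3gal5 (-0.52), with Slc35a1 at -1.70 and Chst11 at -2.01. Against control it gave 1.99 for Fut10 at GV, 1.80 for Fut10 and -2.85 for Slc35a1 in adult Dis3 cKO, and 2.19 for St3gal5 and -0.63 for Slc35a1 in p20 Dis3 cKO. The differences of the Dis3 effect at MII from GV were 0.67 (Fut10), -2.13 (St3gal5), -1.12 (Slc35a1) and 0.29 (Chst11).

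The replicate block, on numbers that do not pair the libraries (correlations of same-numbered pairs from -0.44 to 0.34), gave -2.12 for the Chst11 effect at GV3h against GV, and changed no call of the other genes named with a test in the poly(A) and p20 comparisons, the ones fitted with it. With ERCC scaling Slc35c1 in adult Dis3 cKO reversed (-0.20).

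With at least 200 bases of overlap the lower end of Fut10 had an H3K27me3 peak in 2 of 3 libraries of p20 control and of dcKO, and within 3000 bases Chst11 had a peak in 3 of 3 adult controls.

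Counts of other list genes called became 12 from 7 at GV and 15 from 28 at MII in fits of only the groups compared. ERCC scaling gave 26 from 13 in adult, 3 from 5 in p20 Dis3 cKO and 0 from 3 in Exosc10 cKO, and tag sums gave 0, 2 and 0 for those.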

Other observations

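Among nucleotide sugar transporters other than Slc35a1, genes were called in both directions. Slc35a3, the UDP-N-acetylglucosamine carrier, fell in MII Dis3 cKO eggs from 46.3 ± 6.45 CPM (SD, n = 8) to 15.6 ± 4.98 CPM (SD, n = 16; log2 -1.56, edgeR adjusted p = 4.38e-12). Slc35b2, the carrier of the sulfate donor used by sulfotransferases such as CHST11, rose at GV3h from 28.3 ± 8.37 CPM (SD, n = 8) to 53.4 ± 9.17 CPM (SD, n = 16; log2 0.92, edgeR adjusted p = 0.000135) and in p20 dcKO from 14.5 ± 3.58 to 34.3 ± 7.30 CPM (SD, n = 8 each; edgeR adjusted p = 9.39e-06). Slc35a2, the UDP-galactose carrier, fell in adult Dis3 cKO (log2 -0.59, edgeR adjusted p = 0.0163, or 0.270 with counts summed per title tag, where 0 list genes were called) and rose in dcKO (log2 1.04, edgeR adjusted p = 0.000125). Of 11 tested transporters, 0 rose and 1 fell at GV (9.09% against 21.9% of all genes), 2 and 1 at GV3h (27.3% against 38.6%), 4 and 2 at MII (54.5% against 42.1%), 1 and 3 in adult RiboMinus (36.4% against 28.1%) and 6 and 2 in dcKO (72.7% against 53.7%). In both single knockouts at p20 0 were called by edgeR or DESeq2, with 2 (Dis3 cKO) and 3 (Exosc10 cKO) at an unadjusted p under 0.05, where 7.37% and 7.45% of all genes were called.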
